A study of Mus musculus with 18 samples.

Results

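Chemokines, cytokines, their receptors and the components and targets of the NF-kB pathway were followed as a group of 38 genes, chosen by gene symbol from the 51912 genes of the deposited count table. All 38 reached the minimum of 10 read pairs over the 18 libraries that 24495 genes reached in all. All 38 also averaged at least 1 CPM (counts per 1e6, scaled for library size), as did 13453 genes. The genes comprise 13 chemokines, 9 cytokines, 3 receptor subunits, 4 NF-kB subunits, 4 inhibitors or feedback regulators and 5 induced target genes.

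The RNA came from primary cortical astrocyte cultures of mice carrying the transgene Tg(Aldh1l1-EGFP/Rpl10a)JD130Htz, which every group shared. The transgenic line, of B6;FVB stock, was crossed to C57BL/6J, and the offspring were hemizygous. The *Aldh1l1* promoter drives an EGFP-tagged ribosomal protein, so that translating RNA affinity purification (TRAP) pulls down ribosome-bound mRNA of the cells in which that promoter is active (IP), while input is the RNA of the whole lysate. Cortices of postnatal day 0 males and females in equal number were grown for 14 d, replated for 6 d and kept without serum for 24 h, and the dishes then received 50 mM ethanol or control serum-free medium for 24 h in sealed chambers. The IP fraction was sequenced from 6 control and 6 ethanol-treated dishes, and input from 3 of the control and 3 of the ethanol-treated dishes, numbered 4 to 6 in each treatment. The labels do not say that dishes came from separate cultures, so that the p-values measure at most the spread between dishes. The fit draws the spread of each gene toward a trend over all genes.

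Libraries held 74239854 to 132810705 counted read pairs. Of 10 astrocyte markers 8 were higher in IP than in input and 1 was lower (median log2 fold change 0.57). *Aldh1l1* stood at 384 ± 9.97 CPM in IP control (SD, n = 6) and 188 ± 3.65 CPM in input control (n = 3). Enrichment in IP was not particular to astrocyte markers. Higher in IP were also 5 of 8 neuron, 4 of 9 oligodendrocyte lineage and 3 of 7 mural markers, with 1, 4 and 2 lower. Among genes averaging at least 1 CPM, 42.5% were higher in IP and 33.8% lower. The 15 microglia markers summed to 243 to 252 CPM in input control, 261 to 278 CPM in input ethanol, 93.4 to 98.3 CPM in IP control and 105 to 112 CPM in IP ethanol libraries, with none of the 15 at 0 in any group. The endothelial marker *Cldn5* had no read pair in any library. With ethanol in IP, 4 of 10 astrocyte, 1 of 9 oligodendrocyte lineage, none of 8 neuron, none of 6 endothelial and 1 of 8 fibroblast and meningeal markers tested were higher, and 0, 1, 1, 1 and 1 were lower in the same order. With ethanol in input, 4, 2, 2, 0 and 1 were higher and 3, 1, 1, 1 and 0 were lower in that order.

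Chemokines are small secreted proteins that attract leukocytes through G protein-coupled receptors, and cytokines such as interleukins and TNF act on receptors that start signalling inside the target cell. Many of these receptors free NF-kB dimers from their inhibitors, and the dimers then enter the nucleus and bind kappaB sites near chemokine, cytokine and adhesion molecule genes. Among the genes they induce are their own inhibitors, which ends the response. Astrocytes are known to be a source of chemokines in the brain, and microglia are known as a main source of interleukin 1 and TNF.

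Promoters were taken from RefSeq (GRCm38.p6) as windows of 300 bases, 250 before and 50 after each start, and 26 of the 38 genes had 1 or more of them, 30 windows in all. A kappaB consensus was found on either strand in 11 of the 30 windows (36.7%) and in 4.51% of all 32851 promoters. By gene it was found in 9 of 26, since *Nfkb2* gave several windows with a match, some of them overlapping and sharing a site. The members were chosen partly as NF-kB targets, so that a share above that of all promoters was built into the choice. The genes with a match were *Ccl20*, *Csf1*, *Cxcl1*, *Cxcl2*, *Cxcl10*, *Il6*, *Nfkb2*, *Nfkbia* and *Tnfaip3*. The 200 bases before the start of 6 genes are shown 5′ to 3′ with the kappaB match in capitals, since they set members that fell with ethanol beside one that was not called. *Cxcl1*, *Cxcl2*, *Cxcl10* and *Ccl20* fell and have a match, *Nfkbia* has a match and was not called, and *Il1b* fell without one. Among genes not shown, *Tnfaip3* fell in IP and has a match, and *Cxcl12* fell in IP without one. *Il6* and *Nfkb2* have a match and were not called, and *Csf1* has one and was called lower in input. *Il33*, lower in input, has no match, and neither do *Osmr* and *Il6st*, which rose, or *Icam1*, higher in input. The windows of *Ccl3*, *Cx3cl1*, *Il1a*, *Il18*, *Tnf*, *Tnfrsf1a*, *Tnfaip2*, *Rela*, *Ptgs2*, *Lif* and *Socs3*, which were not called, hold no match. No window was available for *Ccl2*, *Ccl7*, *Cxcl5* and *Il34*, which fell in IP. A link between match and fall was not tested.
Cxcl1, chr5:90891045-90891244, + strand: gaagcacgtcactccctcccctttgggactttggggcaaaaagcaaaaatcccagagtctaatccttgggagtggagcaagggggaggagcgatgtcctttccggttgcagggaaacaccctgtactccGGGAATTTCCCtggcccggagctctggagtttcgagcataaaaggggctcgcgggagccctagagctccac
Cxcl2, chr5:90903699-90903898, + strand: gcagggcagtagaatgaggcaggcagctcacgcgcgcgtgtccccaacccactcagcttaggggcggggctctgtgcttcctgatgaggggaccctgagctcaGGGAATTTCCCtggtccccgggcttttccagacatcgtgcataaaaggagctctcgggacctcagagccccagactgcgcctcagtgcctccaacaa
Cxcl10, chr5:92348890-92349089, - strand: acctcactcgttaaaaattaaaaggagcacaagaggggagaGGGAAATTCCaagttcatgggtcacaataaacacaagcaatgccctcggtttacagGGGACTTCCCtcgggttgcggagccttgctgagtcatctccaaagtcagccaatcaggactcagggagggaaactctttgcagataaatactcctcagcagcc
Ccl20, chr1:83116566-83116765, + strand: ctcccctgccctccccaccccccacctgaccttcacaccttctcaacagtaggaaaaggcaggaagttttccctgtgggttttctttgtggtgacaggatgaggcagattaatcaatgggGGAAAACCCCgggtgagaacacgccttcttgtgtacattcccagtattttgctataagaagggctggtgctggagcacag
Nfkbia, chr12:55492648-55492847, - strand: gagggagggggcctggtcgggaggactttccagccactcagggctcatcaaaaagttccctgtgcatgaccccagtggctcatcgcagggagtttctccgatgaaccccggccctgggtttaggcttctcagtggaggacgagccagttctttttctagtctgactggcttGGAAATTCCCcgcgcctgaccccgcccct
Il1b, chr2:129371140-129371339, - strand: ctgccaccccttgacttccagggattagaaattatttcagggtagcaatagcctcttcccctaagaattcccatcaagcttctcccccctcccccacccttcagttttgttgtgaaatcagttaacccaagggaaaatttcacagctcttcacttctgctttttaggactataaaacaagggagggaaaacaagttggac
In *Cxcl1* and *Cxcl2* the capitals hold overlapping matches that are 1 base apart and begin at -71 and -97 from the start. *Cxcl10* holds separate matches that begin at -159 and -103, *Ccl20* holds 1 match at -80, and *Nfkbia* holds 1 at -29. Of the other motifs searched on both strands, AP-1 (TGANTCA) was found in 23.3% of the members' windows and in 7.81% of all promoters, and STAT (TTCNNNGAA) in 13.3% and 8.30%. The TATA box (TATAAA) was found in 33.3% and 13.6%, and CRE (TGACGTCA) in none of the members' windows and in 1.79% of all promoters.

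To compare levels between genes, read pairs were divided by exonic length and scaled to a common total (TPM, given as mean ± SD). The member with the highest level in IP control was *Csf1*, the growth factor of microglia and macrophages, at 2280 ± 88.5 TPM (n = 6), followed by the CC chemokine *Ccl5* at 1950 ± 120.1 TPM. The adhesion molecule *Vcam1* at 797 ± 20.0 TPM and the membrane-bound chemokine *Cx3cl1* (fractalkine) at 785 ± 31.0 TPM came next, with overlapping ranges. *Nfkbia*, which encodes the inhibitor IkB alpha, stood at 525 ± 17.4 TPM and the monocyte attractant *Ccl2* at 476 ± 23.7 TPM. At the low end were *Il1a* at 3.88 ± 0.308 TPM, the prostaglandin synthase *Ptgs2* at 3.42 ± 0.410 TPM, the inducible nitric oxide synthase *Nos2* at 2.69 ± 0.314 TPM and *Il6* at 0.989 ± 0.181 TPM. The members thus spanned more than 3 orders of magnitude, and the classical acute cytokines sat at the bottom of the order in IP. In input control the same 4 low genes had 20.6 ± 1.93, 8.36 ± 0.395, 2.52 ± 0.203 and 3.94 ± 0.962 TPM in that order (n = 3).

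**Figure D1:**
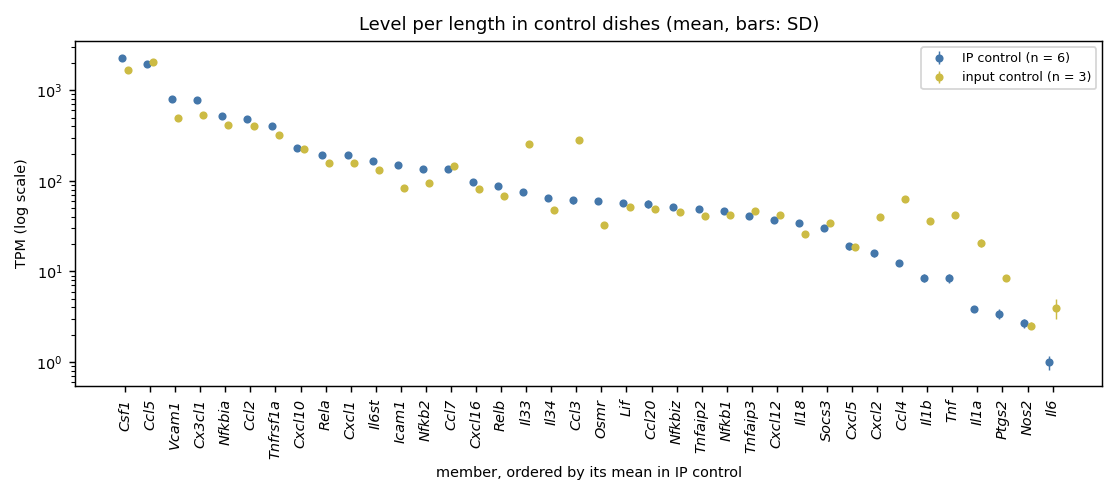
Level per exonic length (TPM, log scale) of the 38 members in IP control (n = 6) and input control (n = 3) libraries, as mean with SD, ordered by the IP control mean. *Csf1* and *Ccl5* have the highest levels in both fractions, and *Il33*, *Ccl3*, *Cxcl2*, *Ccl4*, *Il1b*, *Tnf*, *Il1a*, *Ptgs2* and *Il6* stand well above their IP level in input.

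To find how ethanol changed these genes in each fraction, ethanol-treated and control libraries were compared with edgeR's quasi-likelihood test on all 24495 genes, and a gene was called when its Benjamini-Hochberg adjusted p was below 0.05. In the IP fraction 15 of 38 members were called (39.5%), against 21.4% of all genes tested and 36.8% of the genes averaging at least 1 CPM. By direction, 11 members were lower (28.9%, against 9.48% of all genes and 16% of those with at least 1 CPM) and 4 were higher (10.5%, against 11.9% and 20.8%). In the input fraction 14 of 38 were called (36.8%), against 15% of all genes tested and 26.4% of those with at least 1 CPM. There 9 members were lower (23.7%, against 7.78% and 13.6%) and 5 were higher (13.2%, against 7.21% and 12.8%). The members that were lower were mostly secreted ligands, and those that were higher were receptor subunits, adhesion molecules and *Nfkbiz*. Log2 fold changes, ethanol over control, are given as the estimate ± SE. The median over the 38 members was -0.020 in IP and -0.029 in input, beside 0.0054 and -0.00092 over all genes tested. The counts disregard strand, and with counts on a gene's own strand no call of a member changed for ethanol or for IP vs. input. In bulk RNA, fewer cells of a type and less RNA per cell cannot be told apart.

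**Figure D2:**
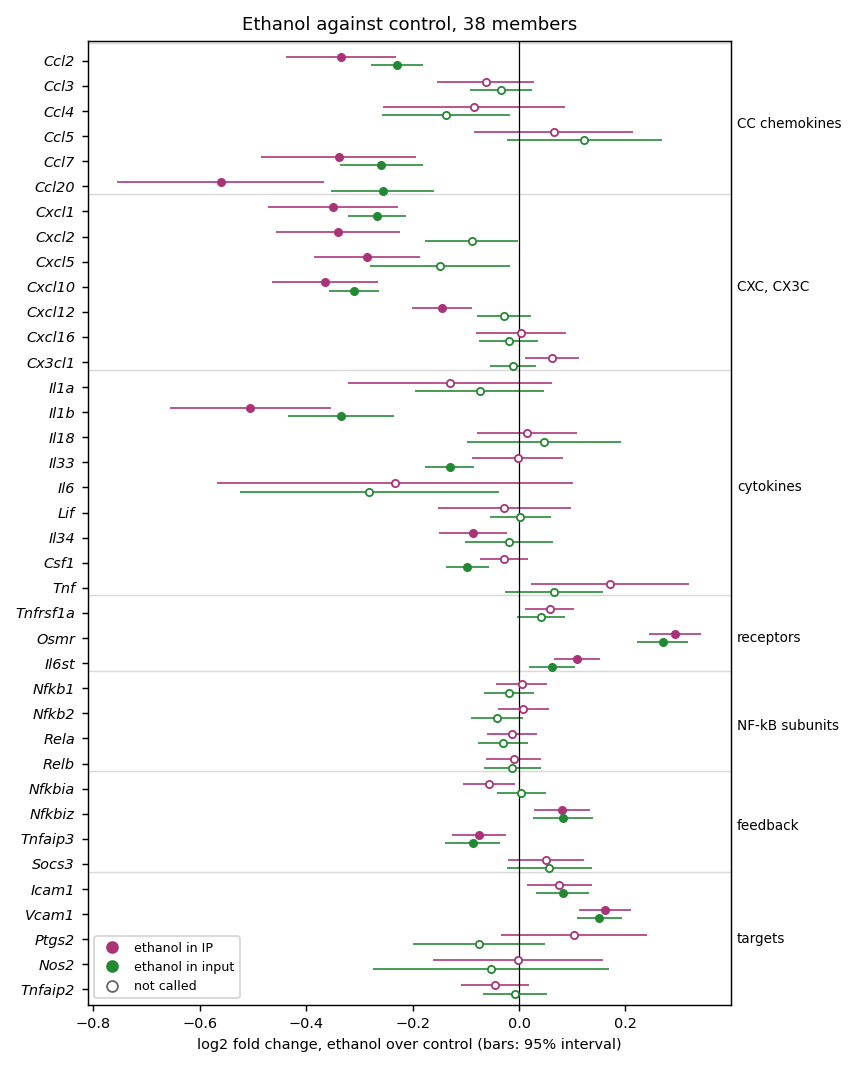
Log2 fold change, ethanol over control, of the 38 members in IP (purple, 6 against 6 libraries) and input (green, 3 against 3), with bars for the 95% interval, grouped by role. Filled points passed an adjusted p below 0.05 and open points did not. The filled points of the chemokines all lie below 0, those of *Osmr*, *Il6st* and *Vcam1* lie above it, and no NF-kB subunit is filled.

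Of the 13 chemokines, 8 were lower with ethanol in IP and 5 in input, and none was higher in either fraction. Beside them, 16% of all genes averaging at least 1 CPM were lower in IP and 13.6% in input, and 20.8% and 12.8% were higher. The median log2 fold change of the 13 was -0.29 in IP and -0.14 in input. *Ccl2* and *Ccl7*, neighbouring genes on chromosome 11 (chr11:82035571-82037453 and chr11:82045712-82047525, GRCm38) whose products attract monocytes through CCR2, fell in both fractions.

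*Ccl2* had 146.4 to 165.9 CPM (median 153.05) in the 6 IP control libraries and 108 to 139 CPM (median 119.9) in the 6 IP ethanol libraries. The groups did not overlap, and the log2 fold change was -0.33 ± 0.053, adjusted p = 0.000663, a decrease of 20.7%. In input, *Ccl2* had 141, 141 and 137 CPM in the control libraries and 124, 116 and 121 CPM in the ethanol libraries, again without overlap, with a log2 fold change of -0.23 ± 0.025, adjusted p = 3.81e-18. *Ccl7* had 28.4 to 33.1 CPM (median 31.1) in IP control and 19.6 to 28.4 CPM (median 24.6) in IP ethanol libraries, where the highest ethanol library stood just above the lowest control library. Its log2 fold change in IP was -0.34 ± 0.074, adjusted p = 0.00623. Input libraries held 36.3, 36.4 and 33.5 CPM of *Ccl7* in control and 30.6, 27.3 and 31.6 CPM in ethanol, with no overlap (-0.26 ± 0.040, adjusted p = 4.14e-09).

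The CCR6 ligand *Ccl20* (chr1:83116766-83119167) showed the largest decrease of all 38 members in IP. It had 19.7 to 26.0 CPM (median 22.7) in IP control and 13.4 to 19.2 CPM (median 14.4) in IP ethanol libraries, without overlap, and a log2 fold change of -0.56 ± 0.099, adjusted p = 0.00185, a decrease of 32.2%. In input the decrease was 16.3%, from 21.3, 20.6 and 22.1 CPM to 17.8, 17.2 and 19.0 CPM, also without overlap (-0.26 ± 0.050, adjusted p = 6.83e-06).

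*Cxcl1*, *Cxcl2* and *Cxcl5*, neutrophil attractants that act on CXCR2, lie together on chromosome 5 (chr5:90891241-90893115, chr5:90903871-90905938 and chr5:90759360-90761624). All of them fell in IP. *Cxcl1* had 93.9 to 109 CPM (median 104) in IP control and 73.6 to 94.9 CPM (median 76.9) in IP ethanol libraries, and 1 ethanol library, replicate 1, overlapped the controls. Its log2 fold change was -0.35 ± 0.062, adjusted p = 0.00185 in IP. In input it went from 91.8, 92.3 and 86.6 CPM to 75.3, 73.5 and 78.1 CPM without overlap, a log2 fold change of -0.27 ± 0.027, adjusted p = 8.83e-20. *Cxcl2* had 8.33 to 10.6 CPM (median 9.16) in IP control and 6.53 to 8.43 CPM (median 7.14) in IP ethanol libraries. The groups overlapped at the edge, and the log2 fold change was -0.34 ± 0.060, adjusted p = 2.00e-05. In input, *Cxcl2* stood at 24.8, 26.2 and 24.4 CPM in control and 24.3, 21.2 and 26.1 CPM in ethanol libraries, which overlapped, and was not called (-0.089 ± 0.045, adjusted p = 0.195). *Cxcl5* had 9.16 to 11.1 CPM (median 10.1) in IP control and 7.69 to 8.58 CPM (median 8.24) in IP ethanol libraries, without overlap (-0.29 ± 0.051, adjusted p = 1.31e-05). In IP replicates 4 to 6 alone the call of *Cxcl5* was lost (-0.18 ± 0.071, adjusted p = 0.0707), and in IP replicates 1 to 3 alone it was -0.40 ± 0.074, adjusted p = 4.00e-06. With 10.97, 10.2 and 10.4 CPM in input control and 9.24, 9.20 and 10.4 CPM in input ethanol libraries, the groups overlapped and *Cxcl5* was not called (-0.15 ± 0.067, adjusted p = 0.134). Without input ethanol replicate 6 both *Cxcl2* (-0.16, adjusted p = 0.0179) and *Cxcl5* (-0.21, adjusted p = 0.0480) were called lower in input, and without input ethanol replicate 5 *Cxcl2* was -0.0094 ± 0.049, adjusted p = 0.956.

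*Cxcl10* (chr5:92346638-92348889), an interferon-inducible ligand of CXCR3 on T cells, fell by similar amounts in both fractions. It had 140.4 to 154.4 CPM (median 146.6) in IP control and 107 to 134 CPM (median 111) in IP ethanol libraries, without overlap, a log2 fold change of -0.36 ± 0.051, adjusted p = 0.000215. In input it had 151.4, 150.6 and 153.5 CPM in control and 118, 125 and 127 CPM in ethanol libraries, also without overlap (-0.31 ± 0.024, adjusted p = 4.06e-34), the lowest adjusted p of any member for ethanol in input. The homeostatic CXCR4 ligand *Cxcl12* changed less. It had 79.7 to 88.4 CPM (median 85.8) in IP control and 71.2 to 82.2 CPM (median 76.2) in IP ethanol libraries, which overlapped at their edges, and a log2 fold change of -0.14 ± 0.029, adjusted p = 0.000105. Its input values of 105, 101 and 109 CPM in control and 105, 99.1 and 108 CPM in ethanol libraries overlapped, and it was not called there (-0.028 ± 0.026, adjusted p = 0.586).

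**Figure D3:**
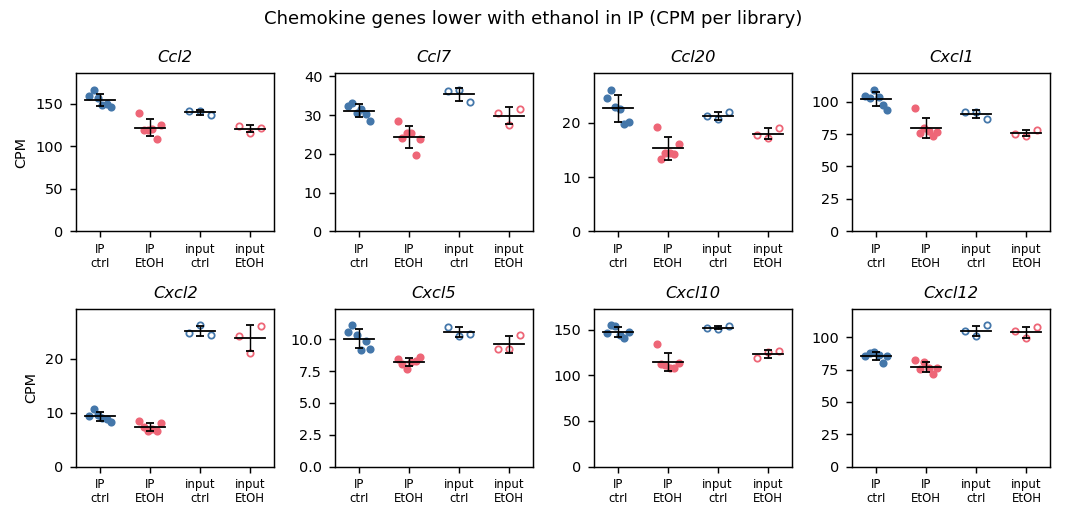
CPM of the 8 chemokine genes that were lower with ethanol in IP, per library (points) with the mean and SD, in IP control and IP ethanol (filled, n = 6 each) and input control and input ethanol (open, n = 3 each). Each vertical axis starts at 0. The ethanol points lie below the control points in both fractions for *Ccl2*, *Ccl7*, *Ccl20*, *Cxcl1* and *Cxcl10*, with 1 IP ethanol library among the lower controls for *Ccl7* and *Cxcl1*.

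IP ethanol replicate 1 was the highest library of its group for 9 of the 11 members that fell in IP. Without that library all 9 were still called, with log2 fold changes of -0.64 to -0.088 and adjusted p up to 0.032 (edgeR). The summed CPM of the 7 mural markers moved with the chemokines, from 1646 to 1781 CPM in IP control to 1072 to 1272 CPM in IP ethanol libraries and from 1298 to 1365 CPM in input control to 909.6 to 971 CPM in input ethanol libraries, and most of it was the actin gene *Acta2*. Of these 7 markers, none of them at 0, 2 were lower and 1 was higher with ethanol in IP, and 1 was lower and 1 higher in input. The summed microglia markers moved the other way. Of the 15 single markers 3 were called higher and none lower in IP, and 4 higher and none lower in input. Among all genes averaging at least 1 CPM, 20.8% were higher and 16% lower in IP, and 12.8% and 13.6% in input. The microglia count in IP was thus near the share of those genes. The part of mural or microglial RNA in the chemokine values was not tested.

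The other 5 chemokines were not called for ethanol in either fraction. *Ccl5*, the most abundant of them, had a log2 fold change of 0.065 ± 0.076, adjusted p = 0.649 in IP and 0.12 ± 0.074, adjusted p = 0.439 in input. Its lowest ethanol library was replicate 5 in both fractions, with 458 CPM in IP and 589 CPM in input, where the other input ethanol libraries had 659.9 and 698 CPM. Without input ethanol replicate 5 only those other libraries remained for ethanol, and *Ccl5* was called higher in input (0.19 ± 0.025, adjusted p = 3.44e-12). Its SE with all input libraries was 0.074, so that this call rests on few libraries and on the moderated spread. The CC chemokines *Ccl3* and *Ccl4* had -0.063 ± 0.046, adjusted p = 0.398 and -0.085 ± 0.087, adjusted p = 0.578 in IP. The membrane-anchored *Cxcl16* had 0.0043 ± 0.043, adjusted p = 0.967, and *Cx3cl1* had 0.062 ± 0.026, adjusted p = 0.0796.

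Among the 9 cytokines, 2 were lower in IP, 3 were lower in input and none was higher. The shares of all genes averaging at least 1 CPM were 16% lower and 20.8% higher in IP, and 13.6% and 12.8% in input. For so few genes the count lower in IP is near that share. *Il1b* (chr2:129364570-129371139), the secreted form of interleukin 1 that inflammasomes activate, fell in both fractions and was the member with the next largest decrease in IP after *Ccl20*. It had 4.07 to 5.17 CPM (median 4.68) in IP control and 2.44 to 3.77 CPM (median 3.25) in IP ethanol libraries, without overlap, a log2 fold change of -0.51 ± 0.077, adjusted p = 7.42e-07. In input it had 21.7, 20.3 and 20.1 CPM in control and 18.0, 14.8 and 16.8 CPM in ethanol libraries, without overlap (-0.33 ± 0.051, adjusted p = 3.39e-09). The summed microglia markers rose with ethanol, and the part of microglia in the *Il1b* values was not tested.

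*Csf1* and *Il34* both encode ligands of the receptor CSF1R, on which microglia depend. *Csf1* had 2700, 2672 and 2721 CPM in input control and 2536, 2487 and 2603 CPM in input ethanol libraries, without overlap (-0.097 ± 0.021, adjusted p = 7.85e-05). In IP the libraries ran from 3296 to 3622 CPM (median 3432) in control and 3241 to 3493 CPM (median 3333) in ethanol, which overlapped, and *Csf1* was not called (-0.028 ± 0.023, adjusted p = 0.448). With trends of GC content and transcript length removed it was called lower in IP (-0.063 ± 0.020, adjusted p = 0.0166). *Il34* had 34.3 to 38.5 CPM (median 35.2) in IP control and 32.8 to 34.8 CPM (median 33.2) in IP ethanol libraries. These groups overlapped and the call was close to the threshold (-0.086 ± 0.033, adjusted p = 0.0495), and it was lost without any one of 6 of the 12 libraries, with adjusted p of 0.053 to 0.16. In input *Il34* stood at 27.8, 28.2 and 28.2 CPM and 27.3, 27.4 and 29.1 CPM and was not called (-0.019 ± 0.042, adjusted p = 0.863).

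*Il33*, a nuclear alarmin released from damaged cells, was lower in input, with 229, 218 and 217 CPM in control and 209, 198 and 204 CPM in ethanol libraries and no overlap (-0.13 ± 0.023, adjusted p = 6.82e-07). In IP it had 58.3 to 66.6 CPM (median 60.8) in control and 56.7 to 69.2 CPM (median 59.8) in ethanol libraries, with full overlap (-0.0021 ± 0.044, adjusted p = 0.983). *Tnf*, the acute cytokine whose receptor *Tnfrsf1a* signals to NF-kB, had 0.17 ± 0.076, adjusted p = 0.104 in IP and 0.066 ± 0.047, adjusted p = 0.431 in input. *Il6* had the widest error, at -0.23 ± 0.17, adjusted p = 0.391 in IP and -0.28 ± 0.12, adjusted p = 0.121 in input. It was called lower in input without control replicate 6 (-0.46, adjusted p = 0.00929) and without ethanol replicate 6 (-0.38, adjusted p = 0.0493). *Il1a*, *Il18* and the gp130 ligand *Lif* had log2 fold changes in IP of -0.13 ± 0.098, 0.016 ± 0.048 and -0.028 ± 0.064. With all libraries and no trend removed, none of *Tnf*, *Il6*, *Il1a*, *Il18* and *Lif* was called in either fraction. With trends of GC content and transcript length removed, *Tnf* was called higher in IP (0.21 ± 0.073, adjusted p = 0.0313).

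The receptor subunits went the other way. *Osmr* (chr15:6813577-6874969) and *Il6st*, which encodes gp130, together form the receptor of oncostatin M, and gp130 also carries the signals of interleukin 6 and *Lif* to JAK and STAT proteins. Both rose in both fractions. *Osmr* had 197 to 217 CPM (median 208) in IP control and 243 to 267 CPM (median 254) in IP ethanol libraries, without overlap, and its log2 fold change of 0.29 ± 0.025, adjusted p = 2.82e-14 was the largest increase of the 38 members. In input it had 117, 121 and 122 CPM in control and 155.5, 137 and 145.8 CPM in ethanol libraries, again without overlap (0.27 ± 0.025, adjusted p = 4.63e-25). For *Il6st*, IP control libraries had 505 to 537 CPM (median 526) and IP ethanol libraries 549 to 568 CPM (median 565), without overlap (0.11 ± 0.022, adjusted p = 0.00012). In input the change was smaller, from 447, 447 and 447 CPM to 483, 464 and 464 CPM, without overlap (0.062 ± 0.022, adjusted p = 0.0405), and the call was lost without any one of 4 of the 6 libraries, with adjusted p of 0.10 to 0.26. The TNF receptor *Tnfrsf1a* had 0.058 ± 0.024, adjusted p = 0.0756 in IP and 0.041 ± 0.023, adjusted p = 0.271 in input and was not called. It was called higher in IP with trends of GC content and transcript length removed (0.058 ± 0.019, adjusted p = 0.0143). The same held with the replicate number as a block (0.057 ± 0.022, adjusted p = 0.0439).

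None of the 4 NF-kB subunits was called for ethanol in either fraction. Their log2 fold changes in IP were 0.0050 ± 0.024 for *Nfkb1* (p105), 0.0079 ± 0.024 for *Nfkb2* (p100), -0.013 ± 0.024 for *Rela* (p65) and -0.010 ± 0.026 for *Relb*. In input they were -0.018 ± 0.024, -0.041 ± 0.025, -0.030 ± 0.024 and -0.012 ± 0.028 in the same order. The 95% intervals of the 4 subunits in IP lay within -0.061 and 0.056. With trends of GC content and transcript length removed, *Nfkb2* was called lower in IP (-0.057 ± 0.021, adjusted p = 0.0358). mRNA levels do not show how much NF-kB protein is in the nucleus.

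Of the feedback regulators, 1 was higher and 1 was lower, both by small amounts. *Nfkbiz*, an inducible nuclear IkB protein, had 70.3 to 76.3 CPM (median 72.8) in IP control and 74.1 to 80.7 CPM (median 76.4) in IP ethanol libraries, which overlapped (0.081 ± 0.027, adjusted p = 0.0214). In input it had 67.0, 68.6 and 69.0 CPM in control and 73.5, 74.1 and 70.6 CPM in ethanol libraries, without overlap (0.082 ± 0.029, adjusted p = 0.0334). The call was lost without any one of 5 libraries in IP (adjusted p of 0.061 to 0.12) and without any one of 5 in input (0.058 to 0.16). *Tnfaip3*, which encodes the NF-kB inhibitor A20, had 82.2 to 85.8 CPM (median 85.2) in IP control and 76.9 to 83.6 CPM (median 79.5) in IP ethanol libraries, which overlapped (-0.076 ± 0.026, adjusted p = 0.0273). In input it fell from 106, 102 and 101 CPM to 97.1, 96.6 and 99.5 CPM without overlap (-0.087 ± 0.026, adjusted p = 0.00874). Its call was lost without IP ethanol replicate 4 (adjusted p = 0.084) and, in input, without control replicate 4 or ethanol replicate 5 (0.12 and 0.0505). *Nfkbia* had -0.056 ± 0.025, adjusted p = 0.109 in IP, and the JAK-STAT inhibitor *Socs3* had 0.051 ± 0.036, adjusted p = 0.375.

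Among the adhesion molecules and enzymes, *Vcam1* (chr3:116109949-116129688), which binds an integrin of lymphocytes and monocytes, rose in both fractions. It had 1958 to 2072 CPM (median 2009) in IP control and 2121 to 2416 CPM (median 2233) in IP ethanol libraries, without overlap (0.16 ± 0.025, adjusted p = 1.64e-06). Input libraries had 1373, 1334 and 1332 CPM in control and 1518, 1437 and 1563 CPM in ethanol, without overlap (0.15 ± 0.021, adjusted p = 1.83e-10). The related *Icam1* was higher in input, at 109.6, 111 and 110.0 CPM in control and 113, 117 and 122 CPM in ethanol libraries without overlap (0.082 ± 0.025, adjusted p = 0.0113), and this call was lost without replicate 6 of either treatment (adjusted p of 0.25 and 0.053). In IP, *Icam1* had 179 to 201 CPM (median 185) in control and 186 to 209.6 CPM (median 199) in ethanol libraries, which overlapped, and missed the threshold (0.076 ± 0.031, adjusted p = 0.0824). *Ptgs2*, *Nos2* and *Tnfaip2* had log2 fold changes in IP of 0.10 ± 0.070, -0.0016 ± 0.081 and -0.045 ± 0.033 and in input of -0.076 ± 0.063, -0.053 ± 0.11 and -0.0077 ± 0.030, and were not called in either.

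**Figure D4:**
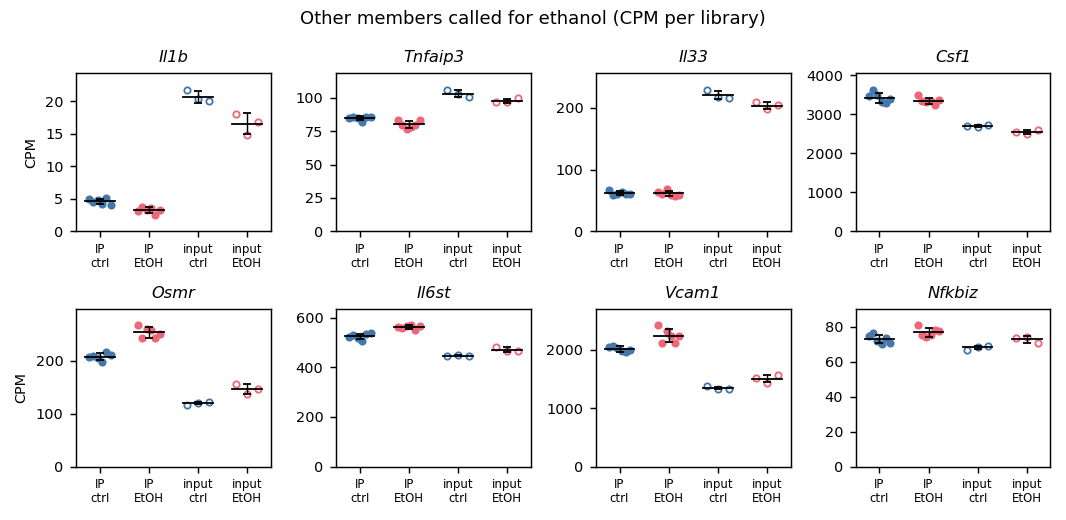
CPM per library (points) with the mean and SD of 8 further members that were called for ethanol in at least 1 fraction, in IP control and IP ethanol (filled, n = 6 each) and input control and input ethanol (open, n = 3 each). Each vertical axis starts at 0. *Il1b* lies far higher in input than in IP and below its control with ethanol in both, while *Osmr*, *Il6st* and *Vcam1* lie above their controls.

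Groups that did not overlap were counted without a test. In IP, 5 members lay lower without overlap (*Ccl2*, *Ccl20*, *Cxcl5*, *Cxcl10* and *Il1b*) and 3 higher (*Vcam1*, *Osmr* and *Il6st*), against 4.85% and 5.12% of all genes tested and 8.53% and 9.13% of those averaging at least 1 CPM. With only 3 against 3 input libraries, 11 members lay lower, the 9 called ones with *Ccl4* and *Nfkb2*, and 6 higher, the 5 called ones with *Tnfrsf1a*. The shares of all genes were 12.1% and 15.3%, and of those averaging at least 1 CPM 17.3% and 23.5%. The number of members called higher depended on single libraries. Without IP ethanol replicate 5, 8 members were called higher in IP, *Cx3cl1*, *Tnf*, *Tnfrsf1a* and *Icam1* being the added ones. In input, 2 members were called higher without control replicate 6, and 3 without control replicate 4, control replicate 5 or ethanol replicate 4.

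The calls of the fractions, from 6 against 6 IP and 3 against 3 input libraries, were set side by side. Lower in both were 7 members (*Ccl2*, *Ccl7*, *Ccl20*, *Cxcl1*, *Cxcl10*, *Il1b* and *Tnfaip3*), against 5.48% of all genes and 9.89% of those averaging at least 1 CPM, and higher in both were 4 (*Nfkbiz*, *Vcam1*, *Osmr* and *Il6st*), against 5.32% and 9.65%. Called in IP alone were *Cxcl2*, *Cxcl5*, *Cxcl12* and *Il34*, and called in input alone were *Il33*, *Csf1* and *Icam1*. The numbers of libraries behind these sets are unequal. In IP replicates 4 to 6 alone, the dishes that also gave input, *Cxcl5* and *Il34* (-0.038 ± 0.044, adjusted p = 0.678) were not called and *Icam1* was called higher (0.11 ± 0.031, adjusted p = 0.00346). No member was called in opposite directions, and 20 were called in neither fraction. Input and IP libraries of the same dish share their cells, so that the fractions are not independent.

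To ask whether ethanol acted differently in the fractions, the difference of the ethanol effects, IP minus input, was tested as an interaction over all 18 libraries. With edgeR no gene and no member was called (0% of 24495 genes), while 1459 genes, among them *Cxcl2* and *Cxcl12*, had an unadjusted p below 0.05, and DESeq2 called 2 genes and no member. The largest differences in log2 fold change were -0.32 ± 0.15 for *Ccl20*, -0.26 ± 0.10 for *Cxcl2* (adjusted p = 0.786) and -0.18 ± 0.11 for *Il1b*, each more negative in IP. When dishes 4 to 6, which gave both fractions, were fitted alone with a term for each dish (12 libraries), 102 genes (0.416%) and 1 member were called, *Csf1* (0.10 ± 0.028, adjusted p = 0.0421), whose decrease was larger in input. With GC content and length trends removed as well, 47 genes and 1 other member were called, *Cxcl12* (-0.17 ± 0.035, adjusted p = 0.0014). For the other members no fit that was run called a difference between the fractions.

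The IP and input fractions were compared over the 18 libraries with a term for treatment. Of the 38 members 33 were called, 15 lower and 18 higher in IP, against 51% of all genes tested (25.8% lower and 25.2% higher) and 76.3% of those averaging at least 1 CPM (33.8% lower and 42.5% higher). Without overlap were 12 lower and 13 higher members, against 11.6% and 13.6% of all genes and 17.8% and 24.6% of those averaging at least 1 CPM. For 9 members the log2 fold change, IP over input, was below -1, and these were cytokines, chemokines and *Ptgs2*.

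**Figure D5:**
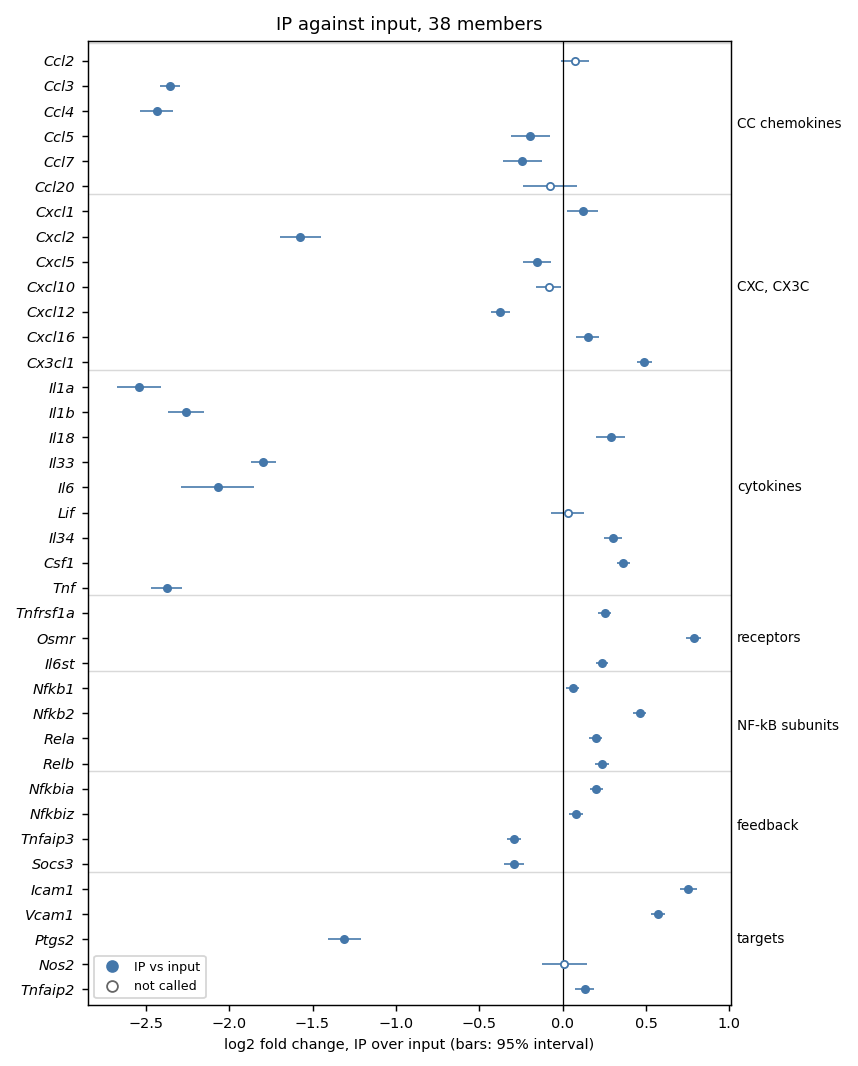
Log2 fold change, IP over input, of the 38 members over 12 IP and 6 input libraries, with bars for the 95% interval, grouped by role. Filled points passed an adjusted p below 0.05. *Il1a*, *Ccl4*, *Tnf*, *Ccl3*, *Il1b* and *Il6* lie below -2, and *Osmr* and *Icam1* lie highest, at 0.79 and 0.75.

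*Il1a* had the lowest log2 fold change, -2.54 ± 0.067, adjusted p = 1.50e-29, from 12.3 ± 0.962 CPM in input control (mean ± SD, n = 3) to 2.18 ± 0.189 CPM in IP control (n = 6). About 10.9% of the read pairs counted on *Il1a* lay on the opposite strand, where *Gm14023* overlaps it, and with own-strand counts the value was -2.56 ± 0.074, adjusted p = 1.18e-19. *Ccl4* had -2.44 ± 0.050, adjusted p = 5.86e-52 and *Ccl3* -2.35 ± 0.030, adjusted p = 6.92e-58, with *Ccl3* at 66.3 ± 2.87 CPM in input control and 13.3 ± 1.002 CPM in IP control. *Tnf* stood at -2.38 ± 0.047, adjusted p = 2.53e-43, *Il1b* at -2.26 ± 0.055, adjusted p = 1.35e-30 and *Il6* at -2.07 ± 0.11, adjusted p = 6.35e-26. Less depleted were *Il33* (-1.80 ± 0.038, adjusted p = 6.76e-18), *Cxcl2* (-1.57 ± 0.063, adjusted p = 1.35e-14) and *Ptgs2* (-1.31 ± 0.051, adjusted p = 6.88e-35). Among the microglia markers 14 of 15 were lower in IP, with a median log2 fold change of -2.48 and a range of -2.80 to -0.29. The 8 fibroblast and meningeal markers had a median of -1.35, with 5 lower and 2 higher. The part of these cells in the members' values was not tested.

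Above their input level in IP were members of several roles. All 4 NF-kB subunits were higher, led by *Nfkb2* (0.46 ± 0.020, adjusted p = 1.40e-32), with *Relb* at 0.23 ± 0.022, *Rela* at 0.20 ± 0.019 and *Nfkb1* at 0.060 ± 0.020. With the dish as a block *Nfkb1* was not called (0.044 ± 0.021, adjusted p = 0.0734). The receptor subunits were higher too, *Osmr* at 0.79 ± 0.023, adjusted p = 8.54e-35, *Tnfrsf1a* at 0.25 ± 0.019 and *Il6st* at 0.24 ± 0.018. The adhesion molecules *Icam1* and *Vcam1* had 0.75 ± 0.026, adjusted p = 4.81e-26 and 0.57 ± 0.021, adjusted p = 8.82e-29. Of the ligands, *Cx3cl1* (0.49 ± 0.023, adjusted p = 1.53e-22) and *Csf1* (0.36 ± 0.019, adjusted p = 2.42e-28) were highest over input, followed by *Il34* at 0.30 ± 0.028, *Il18* at 0.29 ± 0.044, *Cxcl16* at 0.15 ± 0.034 and *Cxcl1* at 0.12 ± 0.048. Small increases were also called for *Nfkbia* (0.20 ± 0.021), *Tnfaip2* (0.13 ± 0.029) and *Nfkbiz* (0.080 ± 0.022).

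Of the 5 chemokines that fell with ethanol in both fractions, 3 were not called between IP and input. *Ccl2* had 0.074 ± 0.043, adjusted p = 0.174, *Ccl20* -0.076 ± 0.083, adjusted p = 0.49 and *Cxcl10* -0.084 ± 0.039, adjusted p = 0.085. In control libraries alone, *Ccl2* was called higher in IP (0.12 ± 0.027, adjusted p = 0.000169) and *Cxcl10* lower (-0.065 ± 0.025, adjusted p = 0.0289). *Ccl20* was not called there (0.065 ± 0.091, adjusted p = 0.635). With the dish as a block, *Ccl20* (-0.17 ± 0.037, adjusted p = 2.33e-05) and *Cxcl10* (-0.14 ± 0.021, adjusted p = 7.63e-10) were called lower and *Lif* (0.11 ± 0.024, adjusted p = 2.34e-05) was called higher. Without the block *Lif* had 0.030 ± 0.051, adjusted p = 0.676 and *Nos2* 0.011 ± 0.070, adjusted p = 0.917. Modest decreases in IP were called for *Cxcl12* (-0.37 ± 0.028), *Tnfaip3* (-0.29 ± 0.020), *Socs3* (-0.29 ± 0.030), *Ccl7* (-0.24 ± 0.059), *Ccl5* (-0.19 ± 0.059) and *Cxcl5* (-0.15 ± 0.043).

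Other genes of the same pathways were counted in 6 lists, beside 11.9% higher and 9.48% lower over all genes tested in IP and 7.21% and 7.78% in input. Of the genes averaging at least 1 CPM, as did all 32 of the NF-kB list, 23 of 24 JAK-STAT, 24 of 26 target, 13 of 18 receptor and antagonist, 19 of 38 ligand and 5 of 13 chemokine receptor genes, 20.8% were higher and 16% lower in IP and 12.8% and 13.6% in input. Their levels are means ± SD of 6 control and 6 ethanol libraries. Of 32 other NF-kB pathway genes 7 were higher and 2 lower with ethanol in IP, and 5 higher and 2 lower in input. *Tab2*, an adaptor of the kinase TAK1, went from 113 ± 2.48 to 125 ± 4.42 CPM in IP (0.16 ± 0.025, adjusted p = 1.98e-06), and the adaptor *Traf1* from 14.5 ± 1.09 to 16.9 ± 0.545 CPM (0.23 ± 0.043, adjusted p = 3.68e-05). The TNF receptor *Tnfrsf1b* rose by 0.13 (adjusted p = 0.000666), and the inhibitor *Nfkbie* fell, with a log2 fold change of -0.10 ± 0.027, adjusted p = 0.00214.

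Among 24 JAK-STAT genes, which act downstream of *Osmr* and *Il6st*, 8 were higher and none lower in IP, and 7 were higher and 1 lower in input. *Stat3* went from 518 ± 13.6 to 572 ± 14.6 CPM in IP (0.15 ± 0.023, adjusted p = 6.87e-07), with *Tyk2* at 0.18 ± 0.028, adjusted p = 7.59e-07, *Jak2* at 0.14 ± 0.027, adjusted p = 6.54e-05 and *Pias1* at 0.12 ± 0.029, adjusted p = 0.00132. Of 18 receptors and antagonists of the IL-1, IL-6 and CSF1 families, 7 were higher and none lower in IP, and 5 higher and 1 lower in input. The IL-1 coreceptor *Il1rap* had 0.16 ± 0.027, adjusted p = 3.38e-06, the LIF receptor *Lifr* 0.21 ± 0.041, adjusted p = 9.72e-05 and the syndecan *Sdc1* 0.17 ± 0.025, adjusted p = 4.17e-07. *Csf1r*, the receptor of *Csf1* and *Il34* and itself one of the microglia markers, went from 3.76 ± 0.252 to 4.71 ± 0.615 CPM in IP (0.33 ± 0.073, adjusted p = 0.00032).

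Other ligands of the same families made a further list. Of 38 tested, 6 were lower and none higher in IP, and 7 were lower and none higher in input, with a median log2 fold change of -0.11 and -0.10. *Clcf1*, a cytokine of the IL-6 family, went from 70.2 ± 2.63 to 63.9 ± 2.38 CPM in IP (-0.13 ± 0.028, adjusted p = 0.000381) and its relative *Ctf1* had -0.16 ± 0.041, adjusted p = 0.00252. The CXC chemokine *Cxcl15* had -0.17 ± 0.040, adjusted p = 0.000739 and the granulocyte factor *Csf3* -0.51 ± 0.18, adjusted p = 0.0357, the latter at 0.630 ± 0.173 to 0.435 ± 0.0705 CPM. In the comparison of fractions 24 of these 38 ligands were lower in IP and 5 higher. Of 13 chemokine receptors tested, 2 were higher and none lower with ethanol in IP and none was called in input. These were *Ackr3* (0.16 ± 0.055, adjusted p = 0.0274), a decoy receptor of *Cxcl12*, and *Cxcr4* (0.11 ± 0.040, adjusted p = 0.0377), its signalling receptor, while *Ackr1* and *Ackr4* had 0.13 ± 0.10, adjusted p = 0.437 and -0.13 ± 0.13, adjusted p = 0.576.

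Inflammatory target genes went in both directions, with 3 of 26 higher and 5 lower in IP, and 5 higher and 3 lower in input. The complement gene *C3* went from 6327 ± 171 to 7240 ± 449 CPM (0.20 ± 0.034, adjusted p = 0.000247) and the ferroxidase *Cp* from 4237 ± 36.7 to 4636 ± 261 CPM in IP (0.14 ± 0.025, adjusted p = 5.25e-05). *Hmox1*, which degrades heme, had 0.13 ± 0.029, adjusted p = 0.000956, and the leukocyte adhesion molecule *Selp*, at 8.78 ± 0.496 to 6.27 ± 0.774 CPM, had -0.47 ± 0.061, adjusted p = 3.32e-08.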

How the data were processed

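The authors made stranded libraries depleted of rRNA, trimmed the read pairs with Trimmomatic, used STAR to align them to GRCm38, and deposited raw read counts per gene, unstranded, without normalization or pooling. Of the assigned pairs 4.35% lay on the opposite strand. Pairs mapping to several places (3.60%) were not counted, so that genes with close copies may be undercounted. No library was a copy of another, since the closest, IP control 5 and 6, differed by 4.06 times the sampling noise.

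From these counts CPM (TMM), TPM and log2 fold changes were computed with edgeR 4.0.16 in R 4.3.3 (robust quasi-likelihood fit and F-test) for the 24495 genes with at least 10 read pairs, with Benjamini-Hochberg adjustment over all of them and a threshold of 0.05. The SE is the absolute log2 fold change divided by the square root of F. It rests on a spread drawn toward a trend over all genes. Above all with 3 against 3 libraries, that spread can be smaller or larger than the gene's own. In input, *Osmr* had an SE of 0.025 with edgeR (adjusted p = 4.63e-25) and 0.037 with DESeq2 (adjusted p = 2.13e-11). For *Csf1* in input the SE was 0.021 with edgeR and 0.020 with DESeq2. The fits were tested on simulated data. Ethanol was tested within each fraction, 6 against 6 and 3 against 3 libraries, and IP vs. input over 18 libraries. Same-numbered input and IP libraries come from 1 dish, so that the dish served as a block beside the unblocked fit. Their deviations had r of 0.019 to 0.15, with 2 of 6 pairs over 0.1. Alternatives changed the normalization, filter, tool (DESeq2 1.42.0), strand, GC and length trends, block and libraries.

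The members, lists and motifs were chosen with earlier results of these data known. Members averaging at least 1 CPM were named, with the 4 genes of lowest p for ethanol in IP of each other list. Promoters came from RefSeq GRCm38.p6 and positions from GENCODE M21. Protein sequences were not analysed here.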

Additional observations from a re-analysis of the deposited data

Results flagged for a closer look

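In the groups of 6 libraries, a library was marked when its gap to the nearest other library, as a share of the group's range, passed Dixon's 95% value. This held in 5 of the 76 groups that the 38 members gave, and chance marks about 1 in 20. IP ethanol replicate 1 stood high for *Cxcl1*, at 94.9 CPM with the next library at 80.1 CPM, and for *Cxcl10*, at 134 CPM with the next at 113 CPM. IP ethanol replicate 5 stood low for *Cx3cl1*, at 848 CPM with the next at 909 CPM, and for *Relb*, at 90.9 CPM with the next at 94.8 CPM. IP control replicate 4 stood low for *Tnfaip3*, at 82.2 CPM with the next at 84.7 CPM. Without IP ethanol replicate 1 the decreases of *Cxcl1* (-0.41 ± 0.030, adjusted p = 7.72e-15) and *Cxcl10* (-0.42 ± 0.026, adjusted p = 1.26e-18) in IP were called by edgeR.

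The ethanol effect on *Csf1* differed between the fractions by 0.10 on the log2 scale (IP minus input) with a term for each dish, with an adjusted p of 0.042 by edgeR over all genes tested. It passed in this fit only, since the fit of 18 libraries without that term gave 0.058 ± 0.036, adjusted p = 0.865, and the term with GC and length trends removed gave 0.053 ± 0.018, adjusted p = 0.353.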

How the results depend on the processing

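The calls of 11 members for ethanol in IP (*Ccl2*, *Ccl7*, *Ccl20*, *Cxcl1*, *Cxcl2*, *Cxcl10*, *Cxcl12*, *Il1b*, *Vcam1*, *Osmr* and *Il6st*) and of 10 in input (*Ccl2*, *Ccl7*, *Ccl20*, *Cxcl1*, *Cxcl10*, *Il1b*, *Il33*, *Csf1*, *Vcam1* and *Osmr*) held in every alternative run. Over the alternatives with all libraries of a comparison or a fixed subset of them, the count of members called was 13 to 19 in IP (15 as reported), 13 to 15 in input (14) and 28 to 35 for IP vs. input (33). Leaving out 1 library gave 13 to 18 called in IP (3 to 8 higher, 9 to 12 lower), 11 to 16 in input (2 to 5 higher, 8 to 12 lower) and 31 to 34 for IP vs. input. The cause of these shifts was not tested.

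Nothing in the labels ties control and ethanol dishes of the same number. The deviations of such pairs had r of -0.10 to 0.22 in IP, with 1 of 6 over 0.1, and 0.020 to 0.066 in input, with 0 of 3 over 0.1. Input and IP libraries of the same dish had r of 0.019 to 0.15, so that this measure cannot show whether such pairs share more. They were taken to share only a number, as the labels give no more. With the replicate number as a block, 8 members were called higher and 11 lower in IP, and 6 and 9 in input. The added higher ones in IP were *Ccl5*, *Cx3cl1*, *Tnfrsf1a* and *Icam1*. That block changed the SE in IP from 0.053 to 0.024 for *Ccl2*, from 0.099 to 0.039 for *Ccl20* and from 0.087 to 0.089 for *Ccl4*. Each SE rests on a spread drawn toward a trend over all genes. A smaller SE with the block, and the calls it added, thus cannot show that dishes of the same number share more. With the dish as a replicate block, 18 members were called higher and 17 lower for IP vs. input, and 1 member differed in its ethanol effect between fractions, higher in IP minus input (*Csf1*). With GC content and length trends removed as well, 1 differed, lower (*Cxcl12*).

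Values near 0 changed sign. In IP, *Nfkb2* was -0.00090 with DESeq2's size factors, -0.0012 over genes with at least 1 CPM, -0.00097 with DESeq2, -0.057 with GC content and length trends removed, -0.010 in IP replicates 1 to 3, and -0.0061 to 0.019 without 1 library. For IP vs. input, *Ccl20* was 0.065 in control libraries alone, and *Lif* was -0.021 with total counts and -0.0026 over genes with at least 1 CPM. With total counts, 40.8% of all genes called for IP vs. input were higher in IP, beside 49.4% with TMM, and 15 members were called higher and 16 lower, *Nfkb1*, *Cxcl1* and *Nfkbiz* no longer being called. The GC correction is centred within a fraction and was not run for IP vs. input. *Il6*, at 0.437 to 3.31 CPM, had the fewest reads, and its changes are the least precise.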
